A study of Mus musculus with 30 samples.

Results

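The clustered protocadherin genes of mouse were followed in transplanted MC38 tumours of mice given a masked IL-12 molecule, an unmasked control molecule or vehicle. Members were chosen by symbol and by total count: they were the entries of the count table whose symbol is that of an alpha, beta or gamma clustered protocadherin gene and whose counts sum to at least 30 over all 30 libraries. Of 58 entries with such a symbol, 47 were members, out of 24552 genes in the table. The alpha cluster gave 4 members of 14 genes, the beta cluster 21 of 22 and the gamma cluster 22 of 22. The total over all libraries was the only measured value in this rule, so the presence of a gene among the members is not a result. The rule uses no difference between groups, but the clusters were picked for description with earlier results of these data known. Just inside the limit was Pcdhac2, with 45 counts in total, and just outside it was Pcdha12, with 12. The others left out were Pcdhb1 with 2 counts, Pcdhac1 with 9, and 8 alpha genes, of which Pcdha4, Pcdha6 and Pcdha7 had none.

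Clustered protocadherins are cell surface proteins of the cadherin superfamily, best known from neurons, where each cell uses its own combination of them and like combinations on neighbouring membranes bind each other. In the alpha and gamma clusters, each variable first exon has its own promoter and is spliced to constant exons that all genes of that cluster share, whereas beta genes are single-exon genes with no shared constant exon. The genes named C-type (Pcdhac1, Pcdhac2, Pcdhgc3, Pcdhgc4 and Pcdhgc5) lie at the end of their clusters and are regulated apart from the others. Promoter choice depends on CTCF and cohesin, which loop a distant enhancer to a promoter, on DNA methylation, and on the repressor SMCHD1.

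MC38 is a mouse colon adenocarcinoma cell line, grown here under the skin of the flank of 10-week-old female C57BL/6J mice. Once tumours measured 200 to 300 mm3, each mouse received a single intravenous dose of vehicle, of the unmasked positive control (0.03 mg/kg) or of mXTX301 (0.39 mg/kg), the masked mouse surrogate of an IL-12 drug. Tumours were taken at day 4 or day 7, which gave 6 groups of 5 mice, and polyadenylated RNA of whole tumour tissue was sequenced. All groups share the cell line, the host strain, the sex and the tumour size at dosing, and the 2 molecules were given at different doses.

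Libraries held between 48301869 and 85195518 counts. The 47 members took 0.0135% of all counts, 248979 in total, so most members were measured on few reads. Epidermal markers such as Krt14 stood apart in 12 libraries, called skin-rich here (1 to 3 per group, of which 3 in vehicle day 7), and each count of called members below was repeated without them. The proliferation genes used as the tumour cell list (6 of 6 tested, Mki67 among them) were present in every library, at a mean log2 CPM between 7.04 and 7.79. Levels are given in CPM, counts scaled by library size, with library sizes adjusted by the trimmed mean of M-values (TMM). In bulk tissue, fewer cells of a type and less RNA per cell cannot be told apart.

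In the mouse genome (build mm10, gene spans from RefSeq for GRCm38), the 3 clusters follow each other on the plus strand of chromosome 18. The alpha cluster spans chr18:36930285-37188897, the beta cluster chr18:37264998-37521419 and the gamma cluster chr18:37661775-37841873. The most abundant member per length, Pcdhgc3, lies at chr18:37806410-37841873, near the end of the gamma cluster. Beta genes that recur below are Pcdhb5 (chr18:37320381-37323913), Pcdhb16 (chr18:37477768-37483038), Pcdhb17 (chr18:37485021-37488290) and Pcdhb22 (chr18:37518353-37521419).

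Per kilobase of exon that no other clustered protocadherin gene shares, Pcdhgc3 stood far above every other member with a known length, at 27.8 CPM per kb over the 30 libraries. The second in order was Pcdhb17 at 1.07 CPM per kb, 25.9-fold lower, followed by Pcdhgb1 at 0.892, Pcdhb22 at 0.848 and Pcdhb16 at 0.695 CPM per kb. The beta genes ranged from 0.0256 to 1.07 CPM per kb, with a median of 0.176, and the gamma genes other than Pcdhgc3 from 0.0285 to 0.892, with a median of 0.117. Of the 3 alpha members with an exon model, Pcdhac2 at 0.00804 and Pcdha9 at 0.0188 CPM per kb lay below all other members, and Pcdha8 at 0.0833 lay among the beta and gamma genes. Thus beta and most gamma genes overlapped in level per length, and a single C-type gene dominated. How the authors' counting treated reads in the constant exons, which all gamma genes share, is not given in the sources used here, so the level of Pcdhgc3 carries that uncertainty.

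**Figure D1:**
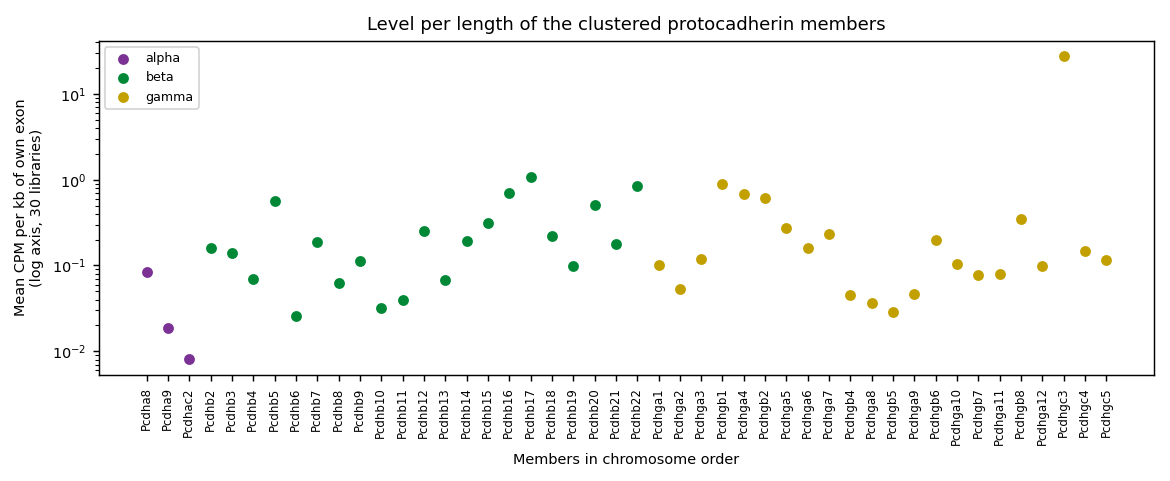
Mean level of each member over the 30 libraries in CPM per kilobase of its own exon (log axis), in chromosome order and coloured by cluster. Pcdhgc3 lies alone at 27.8, while the beta genes and the other gamma genes fill the range from 0.0256 to 1.07.

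Within the beta cluster the reads were spread over many genes. The effective number of genes, which is the number that would give the same evenness if all were equally abundant, was 11.9 ± 0.784 (SD, n = 30 libraries) of 21 by counts. In the gamma cluster it was 1.91 ± 0.146 of 22, since Pcdhgc3 held 88.7% ± 1.46 (SD, n = 30) of the gamma counts, and it was 13.7 ± 2.11 when Pcdhgc3 was left out. Group means for the beta cluster lay between 11.4 (vehicle day 4) and 12.2 (vehicle day 7), so it was not lower in the vehicle day 7 tumours, in which the cluster sum was highest. Pcdhb22 and Pcdhb17 held 19.4% ± 2.88 and 19.1% ± 2.41 of the beta counts (SD, n = 30).

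The summed level of the beta cluster had its highest mean in vehicle at day 7. In vehicle day 7 tumours the 5 libraries, in order of replicate, had 71.7, 52.5, 31.3, 44.7 and 25.9 CPM. In vehicle day 4 they had 22.4, 26.6, 17.4, 19.1 and 28.7 CPM. The tumours given mXTX301 had 20.5, 16.2, 30.9, 27.5 and 16.5 CPM at day 4 and 30.3, 16.5, 23.6, 23.5 and 26.0 CPM at day 7. Those given the unmasked control had 24.5, 16.2, 22.9, 26.8 and 14.8 CPM at day 4 and 26.6, 21.6, 24.5, 26.3 and 24.4 CPM at day 7. Replicates 1, 2 and 4 of vehicle day 7 lay above all 25 libraries of the other groups, replicate 3 lay just above the highest of them, and replicate 5 lay among them. Group means were 22.8 ± 4.80, 22.3 ± 6.61 and 21.0 ± 5.27 CPM at day 4 (vehicle, mXTX301, unmasked; SD, n = 5) and 45.2 ± 18.2, 24.0 ± 5.01 and 24.7 ± 2.00 CPM at day 7. The vehicle mean at day 7 was 1.89-fold that of mXTX301 and 1.83-fold that of the unmasked control, and 1.98-fold that of vehicle at day 4. A sum over chosen members was given no test.

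**Figure D2:**
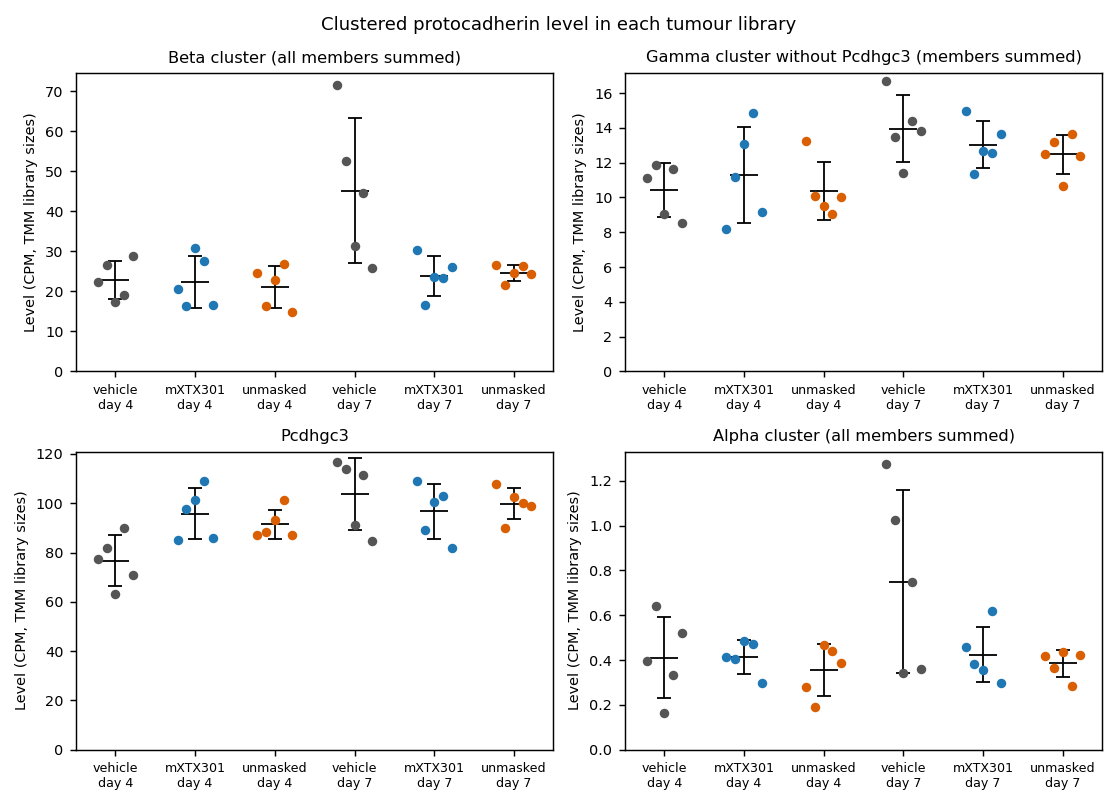
Level in CPM of the summed beta cluster, the gamma cluster without Pcdhgc3, Pcdhgc3 alone and the summed alpha cluster (4 panels, axes from 0) in each of the 30 libraries by group, with mean and SD in black. For the beta cluster, vehicle day 7 reaches 71.7 CPM while the other 5 groups stay between 14.8 and 30.9 CPM.

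The members were also described gene by gene. They are the parts of the sum, read in the same libraries, so their order is no independent observation. All 21 beta members had their highest group mean in vehicle day 7. The share of all tested genes with their highest mean in that group is not given here. In 13 of them the highest of the 30 libraries was replicate 1 of vehicle day 7, in 4 it was replicate 2 and in 1 replicate 3, and the other 3 had it elsewhere. Of the 22 gamma members, 9 had their highest mean in vehicle day 7, 8 in mXTX301 day 7 and 3 in unmasked day 7. Of the 4 alpha members, 3 had it in vehicle day 7.

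Whether the masked molecule changed these genes by day 7 was tested with edgeR's quasi-likelihood test over all 15482 genes that passed its filter on low counts, with Benjamini-Hochberg adjustment over all of them and calls at an adjusted p under 0.05. Of the 47 members, 43 passed the filter. Pcdha9, Pcdhac2, Pcdhb10 and Pcdhga8 were too low to be tested. Against vehicle at day 7, mXTX301 tumours had 16 of the 43 tested members lower and 1 higher, where 22.7% of all tested genes were lower and 25.7% higher (48.4% in either direction). Where a treated group is set against vehicle, fell and rose mean lower and higher than vehicle of the same day, not a change over time. From day 4 to day 7 the mean beta sum went from 22.3 to 24.0 CPM with mXTX301 and from 22.8 to 45.2 CPM in vehicle. By cluster, 14 of 20 beta genes were lower, 2 of 21 gamma genes were lower (Pcdhga1 and Pcdhgb8) and 1 was higher (Pcdhga10), and neither of the 2 alpha genes was called in edgeR's test. Both alpha genes had an unadjusted p under 0.05, as did 54.7% of all tested genes, and DESeq2 called neither. The estimate was negative in all 20 beta genes and in 10 of 21 gamma genes. The median log2 fold change was -0.89 over the beta genes and 0.13 over the gamma genes, beside 0.02 over all tested genes.

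Pcdhb5 had the smallest p of the members in that comparison. Its level was 5.85, 6.23, 2.77, 3.80 and 2.27 CPM in vehicle day 7 and 2.20, 1.04, 1.39, 1.28 and 1.33 CPM in mXTX301 day 7, so the groups did not overlap. Pcdhb5 fell by 1.53 on the log2 scale (SE 0.336, adjusted p = 0.000545), that is 2.88-fold. In the unmasked day 7 tumours Pcdhb5 was at 1.25, 1.05, 1.11, 2.54 and 2.33 CPM, and 2 of these lay just above the lowest vehicle library. Its fall there was 1.34 on the log2 scale (SE 0.334, adjusted p = 0.00199). At day 4, vehicle tumours had 1.39 to 2.77 CPM of Pcdhb5, a range that overlaps that of the treated tumours at day 7 (1.04 to 2.54 CPM) and reaches only the lower end of that of vehicle at day 7.

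Pcdhb8, a gene of low level, was at 0.643, 0.643, 0.218, 0.503 and 0.300 CPM in vehicle day 7 and at 0.186, 0.107, 0.201, 0.0426 and 0.112 CPM in mXTX301 day 7. The groups did not overlap, although the third vehicle library and the third mXTX301 library were close. Pcdhb8 fell by 1.80 on the log2 scale (SE 0.463, adjusted p = 0.00229), and its estimate against vehicle in the unmasked tumours, at 0.183 to 0.285 CPM, missed the threshold. Pcdhb5 and Pcdhb8 were the only members without overlap below vehicle in the mXTX301 comparison, where 14.2% of all tested genes lay wholly below.

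Pcdhb16 was at 10.2, 7.29, 4.51, 6.57 and 3.00 CPM in vehicle day 7, at 4.21, 1.82, 2.73, 2.92 and 3.01 CPM in mXTX301 day 7 and at 4.74, 2.69, 3.51, 3.16 and 2.93 CPM in unmasked day 7. Replicate 5 of vehicle lay inside both treated groups and the other 4 lay above every treated library except replicate 1 of the unmasked control, which passed the lowest of them. Pcdhb16 fell by 1.10 on the log2 scale with mXTX301 (SE 0.293, adjusted p = 0.00301) and by 0.89 with the unmasked control (SE 0.292, adjusted p = 0.0147). Pcdhb12 was at 3.37, 1.89, 0.840, 1.67 and 0.870 CPM in vehicle day 7. In mXTX301 day 7 it was at 0.984, 0.613, 0.573, 0.405 and 0.711 CPM and in unmasked day 7 at 0.434, 0.411, 0.735, 0.572 and 0.662 CPM. The unmasked libraries all lay below vehicle, and 1 mXTX301 library lay within it. The fall of Pcdhb12 was 1.39 (SE 0.378, adjusted p = 0.00354) and 1.62 (SE 0.380, adjusted p = 0.00116) on the log2 scale, in that order.

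Pcdhb17 and Pcdhb22 were the most read beta genes. Pcdhb17 was at 12.9, 8.31, 5.88, 7.64 and 5.67 CPM in vehicle day 7, 5.04, 3.73, 4.80, 4.95 and 5.95 CPM in mXTX301 day 7 and 5.36, 4.23, 4.68, 4.88 and 3.79 CPM in unmasked day 7. It fell by 0.72 (SE 0.228, adjusted p = 0.0105) and by 0.82 (SE 0.229, adjusted p = 0.00493) on the log2 scale with mXTX301 and the unmasked control. Pcdhb22 was at 15.8, 8.69, 4.77, 9.51 and 5.02 CPM in vehicle day 7, at 3.10 to 6.31 CPM in mXTX301 day 7 and at 3.36 to 5.48 CPM in unmasked day 7. It fell by 0.85 (SE 0.283, adjusted p = 0.0155) and by 0.87 (SE 0.283, adjusted p = 0.0139). In both genes replicates 1, 2 and 4 of vehicle were the highest, while replicates 3 and 5 lay at the upper edge of or among the treated libraries.

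Against the same vehicle libraries, the unmasked control at day 7 had 13 of 43 tested members lower and none higher in edgeR's test, where 21.8% of all tested genes were lower and 23.2% higher (45% in either direction). At an unadjusted p under 0.05, which 52.2% of all tested genes had, none of the members was higher either, 15 were lower, and DESeq2 called 13 lower and 0 higher. The calls were 11 of 20 beta genes, 1 of 21 gamma genes (Pcdhgb8) and 1 of 2 alpha genes (Pcdha10). The median log2 fold change was -0.86 over the beta genes and -0.03 over the gamma genes, beside 0.01 over all tested genes. Pcdhb4 had the smallest p, at 0.631, 0.698, 0.280, 0.487 and 0.525 CPM in vehicle day 7 and 0.217, 0.0761, 0.135, 0.252 and 0.196 CPM in unmasked day 7, with no overlap. Pcdhb4 fell by 1.58 on the log2 scale (SE 0.360, adjusted p = 0.00088). Pcdhb20 was at 3.48, 3.38, 2.02, 2.79 and 1.71 CPM in vehicle and at 1.32, 1.84, 1.92, 1.06 and 1.55 CPM in the unmasked tumours, and fell by 0.80 (SE 0.256, adjusted p = 0.0128). Besides Pcdhb4, the members wholly below vehicle were Pcdhb12, Pcdhb17 and Pcdhgb8, 4 in all, where 12.8% of all tested genes lay wholly below. Both day 7 comparisons share the 5 vehicle libraries, so their likeness is no independent observation.

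The day 7 counts rest in part on replicate 1 of vehicle, the library with the highest beta sum. Without it, 5 rather than 16 members were lower with mXTX301 and 6 rather than 13 with the unmasked control, while lower calls over all genes went from 3508 to 3450 and from 3378 to 3288, and Pcdhb17 no longer passed in the mXTX301 comparison (log2 fold change -0.51), whereas Pcdhb5, Pcdhb8, Pcdhb12 and Pcdhb16 did. The mXTX301 count was 10 without replicate 2 of vehicle and 9 without replicate 2 of mXTX301, settings for which calls over all genes are not given here. Leaving out the 12 skin-rich libraries keeps 2 unmasked tumours and 2 of vehicle, replicates 1 and 4, with beta sums of 71.7 and 44.7 CPM. The lowest vehicle libraries, at 31.3 and 25.9 CPM, are dropped, so this setting also rests on replicate 1. In it, 13 members were lower with mXTX301 and 4 with the unmasked control. Pcdhb4, Pcdhb5 and Pcdhb17 were no longer called for the latter, with log2 fold changes of -1.25, -1.36 and -1.01. Over all genes, lower calls in that setting went from 3508 to 2368 with mXTX301 and from 3378 to 897 with the unmasked control.

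**Figure D3:**
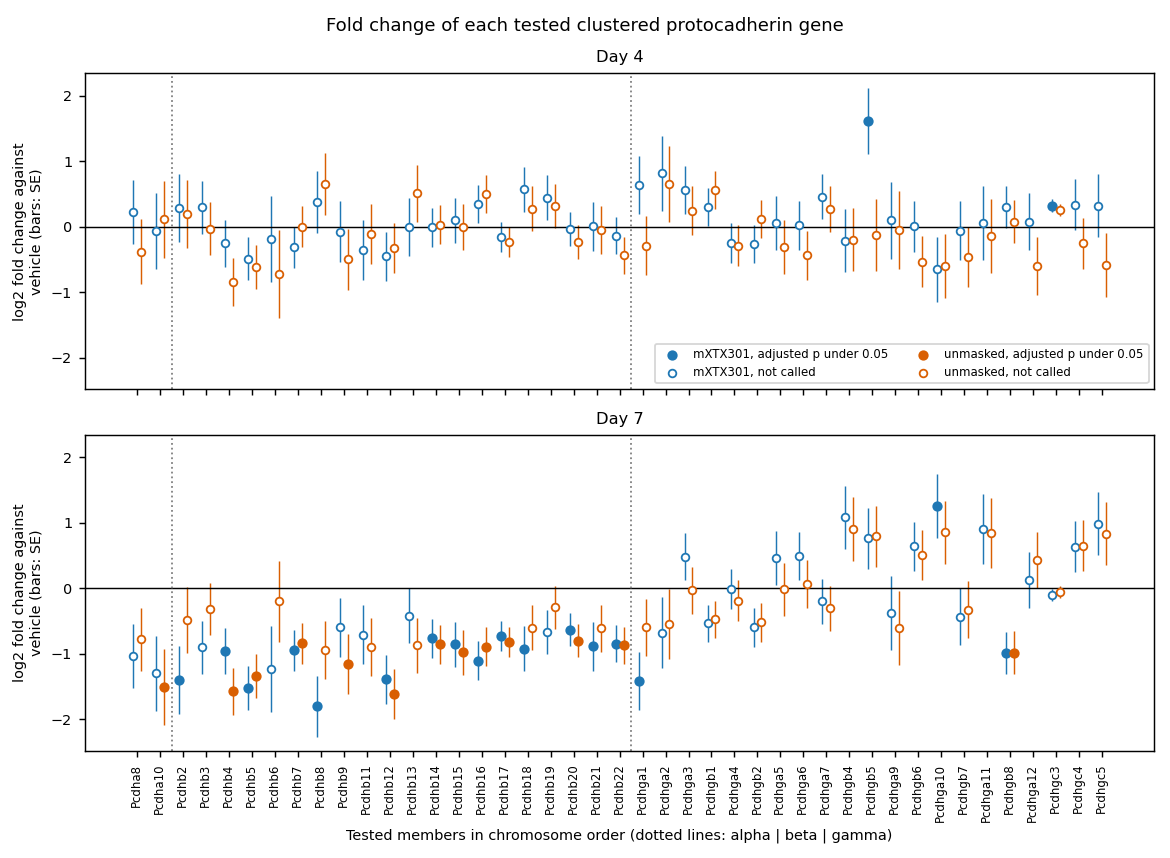
log2 fold change against vehicle with its SE for each of the 43 tested members in chromosome order, at day 4 (top) and day 7 (bottom), for mXTX301 (blue) and the unmasked control (orange). Filled points have an adjusted p under 0.05; at day 7 all 20 beta genes lie below 0 for both molecules, whereas gamma genes lie on both sides.

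At day 4 the beta genes gave no call. For mXTX301 against vehicle, 2 of 43 members were called, both higher and both gamma genes (Pcdhgc3 and Pcdhgb5), where 16.2% of all tested genes were higher and 32.2% were called in either direction. Of the 20 beta genes, 8 had a positive and 12 a negative estimate, the median log2 fold change was -0.03, and none had an unadjusted p under 0.05 in edgeR's test, as 41.6% of all tested genes had, or a call by DESeq2. For the unmasked control against vehicle at day 4, edgeR called 0 of 43 members, where 22.4% of all tested genes were called. There, 1 member was higher and 1 lower at an unadjusted p under 0.05, which 35.5% of all tested genes had, and DESeq2 called 1, higher. So few members were called at a time when many other genes differed from vehicle.

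Whether a molecule's effect differed between the days was tested as an interaction. Pcdhb16 was the only member called, with a day 7 effect lower than the day 4 effect by 1.45 on the log2 scale for mXTX301 (SE 0.414, adjusted p = 0.0427, log2 difference -1.45) and by 1.39 for the unmasked control (SE 0.413, adjusted p = 0.0473, log2 difference -1.39). Of all tested genes, 3.04% and 2.2% were called lower in these tests (4.99% and 5.15% in either direction). Both calls lie near the threshold. The mXTX301 call was lost in 13 of 31 alternatives and the unmasked one in 19 of 31, most of which leave out a single library, replicate 1 of vehicle day 7 among them (log2 differences -1.21 and -1.16 without it). For the other beta genes, among them Pcdhb5, Pcdhb12 and Pcdhb17, a difference between the days was not shown by the edgeR test. The mXTX301 count of members called lower was 5 with DESeq2, 5 without replicate 5 of vehicle day 7, 4 with the replicate block and 4 without the skin-rich libraries, while all genes called lower went from 470 to 826, 737, 544 and 703 in that order.

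In vehicle tumours alone, day 7 was compared with day 4. Pcdhb16 was at 1.98, 3.32, 1.82, 2.35 and 2.91 CPM at day 4 and at the values given above at day 7, a log2 difference of 1.35 (SE 0.295) that just missed the threshold (adjusted p = 0.050032). Pcdhb8 was at 0.138, 0.198, 0.0184, 0.0790 and 0.174 CPM at day 4, wholly below day 7, with a log2 difference of 1.90 (SE 0.466, adjusted p = 0.0554). Pcdhb3 and Pcdhb8 were the members whose day 7 libraries all lay above those of day 4, as did 0.949% of all tested genes. Over all 43 tested members edgeR called 0, where 0.0388% of all tested genes, 6 in number, were called, 0.0194% as higher. At an unadjusted p under 0.05, 27 members were higher and 0 lower, while 18.9% of all tested genes had such a p, and DESeq2 called 9 members higher beside 269 higher and 255 lower over all genes. All 20 beta estimates were positive, with a median log2 difference of 1.07, and 15 of 21 gamma estimates were positive, with a median of 0.43. The median over all tested genes was 0.00285. The beta genes share the same vehicle libraries and varied together, so the 20 estimates are not separate observations. The edgeR count turned to 14 higher without replicate 5 of vehicle day 7, the library with the lowest beta sum of that group, where calls over all genes also went from 3 to 536 higher and from 3 to 539 lower. It was 6 without replicate 3 of vehicle day 7 and 6 without replicate 5 of vehicle day 4, and 3 and 2 without replicates 2 and 4 of vehicle day 4. Calls over all genes in these last settings are not given here, so their counts cannot be read as a change of the members alone.

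In the treated tumours no beta gene was called between the days. For mXTX301, 0 of 43 members were called by edgeR for day 7 against day 4, where 14.5% of all tested genes were called, with 6 higher and 1 lower at an unadjusted p under 0.05, as 32.4% of all tested genes had, and 2 called higher by DESeq2. The median log2 difference of the beta genes was 0.08, beside 0.03 over all tested genes. For the unmasked control 2 members were called, both higher and both gamma genes (Pcdhgb5 and Pcdhgb6), where 14.4% of all tested genes were higher and 25.9% were called in either direction. There the median log2 difference of the beta genes was 0.28, beside 0.03 over all tested genes.

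No member was called between the masked and unmasked molecules. At day 4 all mXTX301 libraries of Pcdhgb5, a gene of few reads, lay above those of the unmasked control (values given below). The share of all tested genes wholly above in that comparison is not given here. Between mXTX301 and the unmasked control edgeR called 0 of 43 members at day 4, with 2 higher at an unadjusted p under 0.05, and 0 at day 7, with 0 at that p, and DESeq2 called 0 on both days. In these comparisons edgeR called 0% of all tested genes, and 13.5% and 5.8% had an unadjusted p under 0.05. For Pcdhb5 the difference between them at day 7 was -0.19 on the log2 scale (SE 0.332), for Pcdhb16 -0.21 (SE 0.291) and for Pcdhb17 0.09 (SE 0.228). The doses differed, and differences well above these standard errors could have gone unseen. In edgeR's test the smallest adjusted p of a member was 0.251 at day 4 and 0.871 at day 7.

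Pcdhgc3, the dominant gamma gene, followed another pattern, in which the lowest group was vehicle at day 4. It was at 77.5, 82.0, 63.3, 90.1 and 70.8 CPM in vehicle day 4, 85.01, 97.8, 101, 109 and 86.1 CPM in mXTX301 day 4 and 87.1, 88.2, 93.4, 101 and 87.2 CPM in unmasked day 4. At day 7 it was at 117, 114, 91.3, 112 and 84.9 CPM in vehicle, 109, 89.2, 100.5, 103 and 81.8 CPM in mXTX301 and 108, 90.1, 102, 100.3 and 98.9 CPM in the unmasked tumours. The groups overlapped in each of these comparisons. Pcdhgc3 rose 1.25-fold with mXTX301 at day 4 (log2 fold change 0.32, SE 0.0968, adjusted p = 0.0124) and stayed called in all 21 alternatives. With the unmasked control at day 4 its log2 fold change was 0.25 (SE 0.0967, adjusted p = 0.0591). In vehicle tumours its day 7 level was 1.35-fold that of day 4 (adjusted p = 0.050032), and at day 7 its log2 fold changes of -0.10 with mXTX301 and -0.05 with the unmasked control did not pass. Thus Pcdhgc3 shared with the beta genes a high vehicle level at day 7 and not a call between treated and vehicle tumours there.

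The other C-type gamma genes, Pcdhgc4 and Pcdhgc5, were not called in any of these comparisons. Pcdhgc5 was at 0.500, 0.192, 0.187, 0.308 and 1.08 CPM in vehicle day 7 and at 1.29, 0.951, 0.837, 0.533 and 0.898 CPM in mXTX301 day 7. Its replicate 5 of vehicle was the second highest of these 10 libraries, while the other 4 vehicle libraries lay below all of mXTX301. The log2 fold change was 0.99 (SE 0.481, adjusted p = 0.0907). Pcdhgc4 had 0.146 to 0.690 CPM in vehicle day 7 and 0.337 to 0.831 CPM in mXTX301 day 7, with a log2 fold change of 0.63 (SE 0.390, adjusted p = 0.185). Pcdhac2, the C-type alpha gene, had at most 0.137 CPM in any library and no count in 12 of the 30. A count of 0 over all libraries would allow up to 0.00162 CPM, counting error only.

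Among the gamma genes with low counts, Pcdhgb5 had 0.0395, 0.0305, 0.0918, 0.0474 and 0.0523 CPM in vehicle day 4 and 0.144, 0.129, 0.263, 0.101 and 0.174 CPM in mXTX301 day 4, with no overlap. Pcdhgb5 rose by 1.61 on the log2 scale (SE 0.509, adjusted p = 0.0166) in that comparison, where 9.29% of all tested genes lay wholly above vehicle. The call was lost without the skin-rich libraries (log2 fold change 1.33), without 8 of them (1.32) and without replicate 3 of mXTX301 day 4 (log2 fold change 1.36). In the unmasked tumours Pcdhgb5 went from 0.0352 to 0.0789 CPM at day 4 to 0.135 to 0.259 CPM at day 7, a rise of 2.08 on the log2 scale (SE 0.506, adjusted p = 0.00513), without overlap, as for Pcdhga11 and for 6.02% of all tested genes. Pcdhgb6 went there from 0.112, 0.275, 0.216, 0.363 and 0.299 CPM to 0.200, 0.974, 0.764, 0.707 and 1.02 CPM. All but replicate 1 of unmasked day 7 lay above day 4, and Pcdhgb6 rose by 1.52 on the log2 scale (SE 0.391, adjusted p = 0.00707). Without the skin-rich libraries neither time difference passed, with log2 differences of 2.23 for Pcdhgb5 and 1.13 for Pcdhgb6, and that of Pcdhgb6 did not pass without 8 of them either (1.33).

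Pcdhga10 was the only member called higher at day 7 with mXTX301. It was at 0.119, 0.205, 0.0933, 0.211 and 0.330 CPM in vehicle and at 0.271, 0.690, 0.372, 0.490 and 0.486 CPM in mXTX301, where only replicate 1 lay within the vehicle range. Pcdhga10 rose by 1.26 on the log2 scale (SE 0.487, adjusted p = 0.0338). The call was lost in 8 of 21 alternatives, with log2 fold changes from 1.06 to 1.80 over all of them, among them those without replicates 1, 2, 3 or 4 of vehicle and without replicates 2, 4 or 5 of mXTX301. By type, 6 of 11 tested gamma A genes had a positive estimate in this comparison, as did 3 of 7 gamma B genes and 2 of 3 gamma C genes.

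Gamma genes of the highest level after Pcdhgc3 showed no call against vehicle. Pcdhgb1 was at 4.33, 3.74, 1.74, 4.04 and 2.21 CPM in vehicle day 7 and at 3.71, 1.53, 2.06, 2.15 and 1.65 CPM in mXTX301 day 7. Replicates 1, 2 and 4 of vehicle were again the highest, and the log2 fold change was -0.53 (SE 0.283, adjusted p = 0.123). At day 4 the unmasked tumours, at 2.32 to 2.61 CPM of Pcdhgb1, all lay above the vehicle ones, at 1.05 to 2.13 CPM, with a log2 fold change of 0.56 (SE 0.285, adjusted p = 0.160), where 7.3% of all tested genes lay wholly above. Pcdhga4 had 0.630 to 1.30 CPM in vehicle day 7 and 0.973 to 1.15 CPM in mXTX301 day 7, and Pcdhgb2 had 1.16 to 2.63 and 1.04 to 1.53 CPM.

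The sum of the gamma cluster without Pcdhgc3 ranged less than that of the beta cluster. Its means were 10.4 ± 1.54, 11.3 ± 2.75 and 10.4 ± 1.66 CPM at day 4 (vehicle, mXTX301, unmasked; SD, n = 5) and 14.0 ± 1.91, 13.0 ± 1.36 and 12.5 ± 1.13 CPM at day 7. The vehicle day 7 mean was 1.07-fold that of mXTX301 and 1.12-fold that of the unmasked control, and all 3 day 7 groups overlapped.

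In the alpha cluster only Pcdha8 and Pcdha10 were tested. Pcdha10 was at 0.667, 0.424, 0.155, 0.308 and 0.195 CPM in vehicle day 7, at 0.0848, 0.138, 0.0620, 0.341 and 0.0935 CPM in mXTX301 day 7 and at 0.117, 0.0457, 0.195, 0.135 and 0.120 CPM in unmasked day 7. Pcdha10 fell by 1.51 on the log2 scale with the unmasked control (SE 0.574, adjusted p = 0.0339), and its log2 fold change with mXTX301 was -1.30 (SE 0.573, adjusted p = 0.0622). Pcdha8 was at 0.548, 0.452, 0.155, 0.390 and 0.0900 CPM in vehicle day 7, at 0.0767 to 0.263 CPM in mXTX301 day 7 and at 0.0841 to 0.271 CPM in unmasked day 7, and was not called, with log2 fold changes of -1.03 and -0.78. In both genes replicates 1, 2 and 4 of vehicle were high, as in the beta cluster. Pcdha9 was detected at 0.254 CPM or less.

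Across the 30 libraries the beta genes varied together. Between pairs of tested beta genes, Pearson's r of the log2 CPM was positive in 190 of 190 pairs, with a median of 0.571 and a range from 0.0781 to 0.890. Between gamma genes other than Pcdhgc3 it was positive in 142 of 190 pairs, with a median of 0.167, and between beta and those gamma genes in 257 of 400, with a median of 0.116. The summed levels were closer: Pearson's r of the beta sum was 0.598 with the sum of the gamma genes other than Pcdhgc3 and 0.554 with Pcdhgc3 alone, and r between these last was 0.609 (n = 30 libraries). Many of the single genes have few reads. Pairs share libraries and their depth, so these values describe the 30 libraries and carry no p. They pool all groups, so they include the high level of the beta genes in vehicle day 7, and no value within groups is given here. In the map of levels by gene and library, replicates 1 and 2 of vehicle day 7 form a block of high values that covers the beta genes and the 2 alpha genes and that continues into single gamma genes such as Pcdhga1, Pcdhgb1 and Pcdhgb8.

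**Figure D4:**
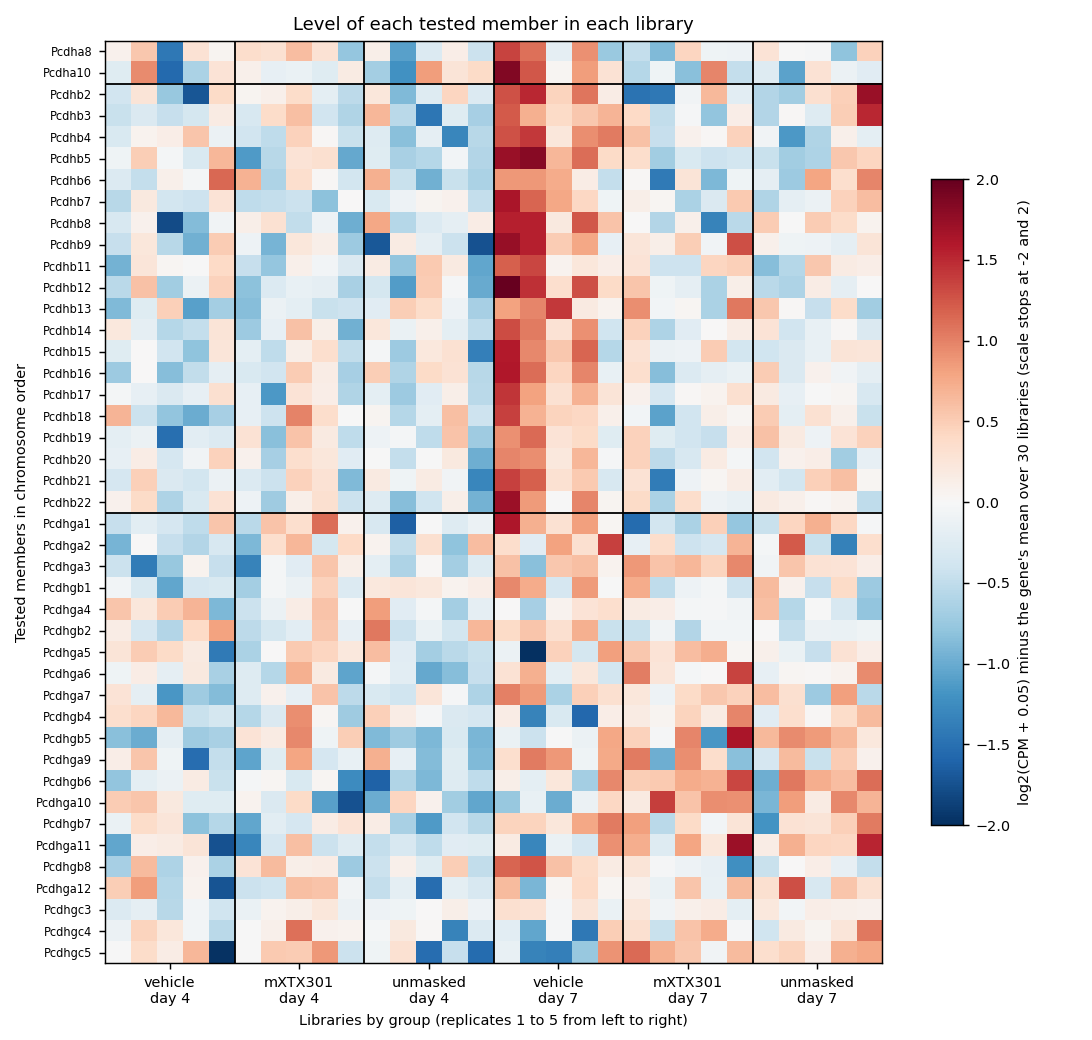
log2(CPM + 0.05) minus the gene's mean over the 30 libraries for the 43 tested members (rows, in chromosome order, lines between clusters) in each library (columns by group, replicates 1 to 5 from left to right, colour scale from -2 to 2). Beta rows are high in vehicle day 7, most of all in replicates 1 and 2, and gamma rows show no block of that kind.

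Other cell types moved with the groups. For mXTX301 against vehicle at day 7, all 8 T cell genes and all 8 macrophage genes were higher, 4 of 9 fibroblast genes were higher, and all 6 proliferation genes were lower. For the unmasked control 8 of 8 T cell and 7 of 8 macrophage genes were higher and 5 of 6 proliferation genes lower. Of all tested genes, 25.7% were higher and 22.7% lower with mXTX301, and 23.2% and 21.8% with the unmasked control. Summed CPM of the proliferation genes was 1800 to 2010 in vehicle day 7, 1270 to 1490 in mXTX301 day 7 and 1310 to 1680 in unmasked day 7, and that of the T cell genes was 28.6 to 43.6, 99 to 207 and 83.2 to 247. The macrophage genes summed to 327 to 935, 1620 to 3980 and 1090 to 3440 CPM, and no gene of these 3 lists was at 0 in any library. At day 4, when the beta genes gave no call, 6 of 8 T cell genes were already higher with either molecule and 4 and 3 of 6 proliferation genes lower with mXTX301 and the unmasked control. In these comparisons 32.2% and 22.4% of all tested genes were called in either direction. Within vehicle day 7, where the beta sum ran from 25.9 to 71.7 CPM, the mean log2 CPM of the proliferation genes was 7.71, 7.75, 7.67, 7.79 and 7.67 in order of replicate. The part of tumour, immune and stromal cell shares in the beta result was not tested.

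Schwann and neural genes, of interest because clustered protocadherins are abundant in neurons, summed to 242 to 292 CPM in vehicle day 7, 253 to 278 in mXTX301 day 7 and 180 to 260 in unmasked day 7. Tubb3 and Ncam1 carried most of that sum, and the list's mean log2 CPM was 0.368 ± 0.430, 1.17 ± 0.572 and 0.554 ± 0.457 in these groups (SD, n = 5). Of 8 tested, 3 were higher and 1 lower with mXTX301 at day 7, and 1 higher and 1 lower with the unmasked control. Of all tested genes, 48.4% and 45% were called in either direction in these comparisons. The neuronal gene Snap25 had no count in 27 of 30 libraries.

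Genes that read or shape the protocadherin locus were described from a list of 25 chromatin regulators, all tested. At day 7, 13 were lower and 2 higher with mXTX301, and 11 were lower and 3 higher with the unmasked control, where 22.7% and 21.8% of all tested genes were lower and 25.7% and 23.2% higher. The median log2 fold change was -0.16 and -0.15, beside 0.02 and 0.01 over all tested genes. With mXTX301, the cohesin genes Stag1 and Rad21 fell by 0.48 (SE 0.0678, adjusted p = 2.68e-06) and 0.43 (SE 0.0642, adjusted p = 5.59e-06) on the log2 scale. Uhrf1, which maintains DNA methylation in dividing cells, fell by 0.39 (SE 0.0674, adjusted p = 4.41e-05). Ctcf, singled out after its values were seen, fell from 179 ± 6.75 to 141 ± 8.99 CPM (SD, n = 5), by 0.35 on the log2 scale (SE 0.0635, adjusted p = 7.07e-05). Stag1, Rad21, Uhrf1 and Ctcf were called lower with the unmasked control at day 7 as well. Smchd1, also singled out, had a log2 fold change of -0.17 (SE 0.0874, adjusted p = 0.101). At day 4, 5 of the 25 were higher and 1 lower with mXTX301, and 1 higher and 4 lower with the unmasked control. Of all tested genes, 32.2% were called there with mXTX301 (16.2% higher) and 22.4% with the unmasked control. These genes are also used by dividing cells. At day 7 most proliferation genes were lower with both molecules, as given above. At day 4, 4 of 6 proliferation genes were lower with mXTX301, where more regulators were higher than lower. With the unmasked control 3 of 6 were lower there, and more regulators were lower than higher. The part of dividing cells in the levels of the regulators was not tested.

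Protocadherins and large cadherins outside the clusters went their own ways. Of 21 such genes, 16 were tested, and 3 were higher and 2 lower with each molecule at day 7, where 48.4% and 45% of all tested genes were called. Pcdh12, a protocadherin of endothelium, fell with both molecules at day 4, from 3.35 ± 0.480 CPM in vehicle to 1.38 ± 0.448 with mXTX301 and 0.657 ± 0.195 with the unmasked control (SD, n = 5; adjusted p = 0.00174 and 4.75e-06). In those comparisons 7 and 9 of 10 endothelial genes were lower as well, where 32.2% and 22.4% of all tested genes were called in either direction. Celsr3, a large cadherin of planar polarity, rose at day 7 from 1.05 ± 0.363 to 3.46 ± 0.689 CPM with mXTX301 and 3.46 ± 1.01 CPM with the unmasked control (adjusted p = 1.81e-05 and 2.14e-05). Pcdh1 fell by 0.90 on the log2 scale with the unmasked control at day 4 (SE 0.201, adjusted p = 0.00207).

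Of 20 partners and processing enzymes of protocadherins, all tested, 4 were higher and 7 lower with mXTX301 at day 7, and 5 higher and 6 lower with the unmasked control, beside the 48.4% and 45% of all tested genes called in these comparisons. The list's share, 11 of 20 with each molecule, is near that background. Wasf1, a subunit of the WAVE actin regulatory complex, fell by 0.63 with mXTX301 and by 0.76 with the unmasked control on the log2 scale (adjusted p = 8.39e-06 and 8.33e-07). Cyfip2 of the same complex rose by 1.41 and 1.72 (adjusted p = 3.24e-05 and 3.51e-06). In bulk tissue the RNA of Wasf1 and Cyfip2 may come from different cells, so these values do not describe the complex within a cell. The kinase gene Ptk2b rose by 1.13 with the unmasked control (adjusted p = 6.79e-06) and was called higher with mXTX301 as well. Of 13 tested classical cadherin and catenin genes, 1 was higher and 4 lower with mXTX301 at day 7 and 1 higher and 2 lower with the unmasked control. Cdh2, the neural cadherin, fell from 19.1 ± 3.80 to 12.8 ± 1.71 CPM with mXTX301 (SD, n = 5; adjusted p = 0.000267), Cdh15 fell by 1.83 on the log2 scale with mXTX301 (adjusted p = 0.00136), and Cdh11 rose by 1.59 with the unmasked control (adjusted p = 0.000275). At day 7 Cdh2 was called lower and Cdh11 higher with the other molecule too, whereas Cdh15 was not called with the unmasked control.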

How the data were processed

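RNA of 30 MC38 tumours was sequenced after polyadenylated RNA selection. The deposited counts are whole-number reads per gene made by the authors with cutadapt, FastQC 0.11.9, STAR 2.7.10a and HTSeq 0.11.1 on mm10, per the submitters' processing notes. The annotation, strand setting and treatment of reads in shared exons are not given in the sources used here, so reads that fit several paralogs or a shared constant exon may be missing or misassigned. The authors also deposited a table of log2 values, per the submitters' processing notes made with edgeR 3.34.0 in R 4.1.0, which holds 42 of the members and was used only for that count.

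Counts were tested with edgeR 4.0.16 in R 4.3.3 (TMM, filterByExpr, robust quasi-likelihood fit, 1 mean per group, 24 residual degrees of freedom) over 15482 genes. Of 24557 rows, 5 with a repeated symbol were left out. DESeq2 1.42.0, other scaling, other filters, a replicate block and left-out libraries were alternatives. The edgeR step was checked on simulated data. Each group holds 5 mice, and depth was 48301869 to 85195518 counts. The limit given for a count of 0 covers counting error only. Lengths came from GENCODE exons and spans from RefSeq. No sequences are shown.

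Members and gene lists were chosen with earlier results of these data known. Genes named by rule are the 4 most abundant of each cluster, up to 5 called members per comparison and direction by p, the C-type genes, those next to the membership limit, and up to 3 called genes of each other list by p. Others are named outside this rule where a count or figure is described, among them Pcdhb3, Pcdhga1, Pcdhga11 and Pcdhgb8. Ctcf and Smchd1 were added after their values were seen. Sums over members were given no test.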

Additional observations from a re-analysis of the deposited data

Results flagged for a closer look

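Of 144 groups of 5 libraries examined for the named members and the cluster sums, 12 held a library whose gap to its nearest neighbour took up most of the group's range. The limit was set so that normally distributed, independent values would give such a gap in about 1 in 20 groups. Many of these genes have few reads and the groups share libraries, so that rate need not hold here and the count of 12 cannot be judged against it. In the alpha cluster, these were Pcdha10 in mXTX301 day 7 replicate 4, at 0.341 CPM beside 0.062 to 0.138 in the others, Pcdha9 in mXTX301 day 4 replicate 4, at 0.0844 beside 0 to 0.0184, and Pcdha9 in mXTX301 day 7 replicate 1, at 0.254 beside 0 to 0.046. Pcdhac2 stood out at 0.0162 CPM in vehicle day 7 replicate 4, which is 1 count, where the other libraries of that group had none. It also stood out at 0.137 CPM in unmasked day 7 replicate 2, beside 0 to 0.0336. In the beta cluster, Pcdhb22 was low in unmasked day 7 replicate 5, at 3.36 CPM beside 4.87 to 5.48.

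Among gamma genes, Pcdhgb1 was at 3.71 CPM in mXTX301 day 7 replicate 1 (others 1.53 to 2.15), Pcdhgb2 at 2.33 in mXTX301 day 4 replicate 4 (1.09 to 1.41) and Pcdhgb6 at 1.2 in mXTX301 day 7 replicate 5 (0.644 to 0.775). Pcdhgb5 was at 0.0789 CPM in unmasked day 4 replicate 4 (0.0352 to 0.0479) and at 0.225 in vehicle day 7 replicate 5 (0.0684 to 0.109), and Pcdhgc4 at 1.08 in mXTX301 day 4 replicate 3 (0.474 to 0.515).

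Pcdhb16 was picked out because the effect of treatment differed between the days, by -1.45 (log2) for mXTX301 and by -1.39 for the unmasked control, as tested with edgeR's interaction term (adjusted p = 0.0427 and 0.0473).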

How the results depend on the processing

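Counts of called members are given beside the reported count in parentheses. Calls over all genes also change with the setting and are not given here, so a moved count is not a result about the members alone. With 1 library left out, lower calls with mXTX301 at day 7 (16) ran from 5 to 20 and with the unmasked control (13) from 6 to 14, lowest without replicate 1 of vehicle day 7, and the former was 10 without replicate 2 of vehicle day 7 and 9 without replicate 2 of mXTX301 day 7. Higher calls at day 7 in vehicle (0) ran from 0 to 14, highest without replicate 5 of vehicle day 7. Higher calls ran from 1 to 3 for mXTX301 at day 4 (2; 1 without its replicate 3), from 0 to 4 for mXTX301 at day 7 (1; 4 without replicate 5 of vehicle), and from 0 to 3 for mXTX301 over time (0; 3 without replicate 3 of day 4). They ran from 0 to 1 for the unmasked control at day 4 (0; 1 without replicate 4 of vehicle), at day 7 (0; 1 without replicate 5 of vehicle) and in its interaction (0; 1 without the same library). Lower calls in the interaction ran from 0 to 5 for mXTX301 (1; 5 without replicate 5 of vehicle day 7) and from 0 to 2 for the unmasked control (1; 2 without its replicate 1 at day 7), and each fell to 0 without replicate 1, 2 or 4 of vehicle day 7.

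Without the 12 skin-rich libraries, counts were 4 lower for the unmasked control at day 7, 4 higher for vehicle over time, 4 lower and 0 lower in the mXTX301 and unmasked interactions, 1 higher for mXTX301 at day 4 and over time, and 0 higher for mXTX301 at day 7 and for the unmasked control over time (2). Without 8 such libraries, a narrower choice made after seeing the data, they were 4 higher for vehicle over time, 3 and 0 lower in the interactions with 1 higher for mXTX301, 2 higher for mXTX301 at day 7, and 1 higher for mXTX301 at day 4 and over time and for the unmasked control at day 4, at day 7 and over time. DESeq2 gave 1 higher for the unmasked control at day 4, 9 for vehicle and 2 for mXTX301 over time, and 5 lower in the mXTX301 interaction. Upper-quartile factors gave 2 higher for vehicle over time, and the skin marker covariate 2 lower in the mXTX301 interaction. No low-count filter, or one at 30 counts, gave 2 higher for mXTX301 at day 7, and the former 0 lower in the unmasked interaction. Fits of the compared groups alone gave 0 lower in both interactions, 1 higher for mXTX301 at day 4 and 1 over time.

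With a replicate block, counts were 14 and 11 lower at day 7, 1 higher for the unmasked control at day 4, 2 higher for vehicle over time, and 4 and 0 lower in the interactions. The labels state no link between libraries of the same number in different groups. Libraries of the same number had a mean correlation of 0.0465, others -0.00421, and 9 of 30 libraries correlated best with their own number. No chance expectation was computed for these values, so they do not settle whether the number carries a meaning.

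For the cluster sums (log2 fold of group means), leaving out the skin-rich libraries gave -1.404 for beta and -0.3213 for gamma with mXTX301 at day 7 (reported -0.92 and -0.10) and 0.6349 for gamma in vehicle over time (0.43). Only replicates 1 and 4 of vehicle day 7 are left in that setting, and replicate 1 has the highest beta sum. Without Pcdhgc3, gamma was 0.1128 with mXTX301 at day 4 (0.30) and reversed to -0.008602 with the unmasked control (0.22). The causes were not tested, except that fewer libraries and members were used where some were left out. Genes with under 1 CPM rest on few reads per library.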

Other observations

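Over the 30 libraries, the genes outside the clusters whose log2 CPM followed the beta sum most closely were C1qtnf6, a secreted protein of the C1q and TNF related family (Pearson's r 0.889), Ctnnb1, which encodes beta-catenin (0.885), Snn (0.87), Sdc2, a cell surface proteoglycan (0.868) and Osbpl9 (0.868). The lowest values were those of Setd6 (-0.867) and Map2k3os (-0.867). All other tested genes, 15439 in number, had a median r of -0.00584. Without the 5 vehicle day 7 libraries r was 0.666 for C1qtnf6, 0.695 for Ctnnb1 and 0.774 for Sdc2 over 25 libraries. These genes were chosen for their likeness, the libraries share the groups and the high vehicle day 7 tumours, and r is a description with no test.

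The effective number of gamma genes without Pcdhgc3 was 13.2 ± 2.15 in vehicle day 4, 14.2 ± 1.24 in mXTX301 day 4, 11.6 ± 0.880 in unmasked day 4, 12.8 ± 2.45 in vehicle day 7, 15.4 ± 1.13 in mXTX301 day 7 and 15.2 ± 2.21 in unmasked day 7 (SD, n = 5). The treated day 7 tumours had the highest means, their libraries overlapped those of vehicle, and no test was made.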
